A study of Coturnix japonica with 144 samples.

Results

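KLF2 (ENSCJPG00005015176), 1 of the 21561 genes counted in the brains of adult Japanese quail, was chosen because its count in the BnST (bed nucleus of the stria terminalis) was lower after the parental sensitization treatment than in controls. The difference between treatments in the BnST is therefore given as a description, without a test, whereas the other brain regions, the sexes and the response classes were tested. Each of 48 birds gave 3 libraries, of the hypothalamus, the BnST and the nucleus taeniae (Tn). Sensitized birds (11 females and 13 males) had been shut in a box overnight with chicks, and control birds (16 females and 8 males) had been shut in without chicks. All birds of both treatments, controls included, were reproductively quiescent, and all were killed after a test with unfamiliar chicks. The behavioural response was labelled R (17 birds) or NR (6) in sensitized birds and S (5) or NS (17) in controls, and 3 birds had no class. These labels come without a key and were read as responders and non-responders, and as controls that did or did not respond spontaneously. Fewer control birds are labelled S than the study describes as brooding. Of the 8 control males the study describes 3 as brooding, where 1 is labelled S and 7 NS. By these counts NS holds males that brooded at least briefly, and NS females may have too, which limits the comparison of S with NS. The samples were tissue punches that hold several cell types, so fewer cells that express KLF2 and less KLF2 RNA per cell cannot be told apart.

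KLF2 encodes a zinc finger transcription factor of the Krüppel-like family, which binds GC-rich and CACCC elements in promoters. In mammals it is best known from endothelial cells, where blood flow induces it, and from resting T cells, where it maintains quiescence. FOS, a subunit of the AP-1 transcription factor, is an immediate early gene that neurons switch on shortly after they become active, and it serves here as the gene against which KLF2 was compared.

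Library totals ran from 9664414 to 19640873 gene reads (median 12636688), and KLF2 had between 240 and 872 reads in each library. At this depth counting error alone gives a coefficient of variation of 4.54% in the hypothalamus, 4.97% in BnST and 5.03% in Tn, well under the spread between birds. No library was a duplicate of another in the same region. Bird 49 stood apart in the BnST, with a first principal component score of 90.3 where the next bird had 39.4. Bird 17, labelled male, had a mean log2 expression of 50 male-biased genes of 5.53 in the hypothalamus, where the 20 other males had 6.28 to 6.41 and the females 5.43 to 5.65, and in the BnST and Tn it also lay below the other males. Without either bird no result that was recomputed changed its side of the threshold, and the main values are given with and without them. The tissue could not be checked against cell type markers, because 0 of the marker genes looked for had an identifier paired with a name.

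KLF2 was expressed in every library of the 3 regions. In the hypothalamus it was expressed at 39.6 ± 10.7 CPM (reads per 1000000 counted, with library sizes scaled by TMM, mean ± SD, n = 48), with a lowest value of 23.9, a median of 37.7 and a highest value of 71.1. The BnST had 34.1 ± 6.84 CPM (n = 48), from 21.5 through a median of 33.3 to 52.1. The Tn had 31.8 ± 7.85 CPM (n = 48), from 16.3 through a median of 30.7 to 47.96. The ranges overlapped widely, and the hypothalamus held the highest value in 30 of 48 birds, the BnST in 11 and the Tn in 7. With all libraries scaled together and treatment in the model, KLF2 was higher in the hypothalamus than in the Tn by 0.25 on the log2 scale (standard error, SE, 0.07, edgeR's quasi-likelihood test, adjusted p = 0.000432). This fit took the 3 libraries of a bird as independent, and values with the bird as a block are given under processing. The BnST lay below the hypothalamus by 0.16 (SE 0.07) and above the Tn by 0.08 (SE 0.07), differences given without a test because they hold the BnST libraries by which KLF2 was chosen. The mean was 41.2 CPM in the hypothalamus and 38.8 CPM in the BnST of control birds, and 37.9 and 29.4 CPM in those of sensitized birds. Differences between regions were common, as 59.7% of all genes passed the threshold between the hypothalamus and the BnST, 67.6% between the hypothalamus and the Tn, and 61.6% between the BnST and the Tn. The hypothalamus exceeded the BnST in 12 of 24 control birds and in 20 of 24 sensitized birds, which also holds that contrast.

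**Figure D1:**
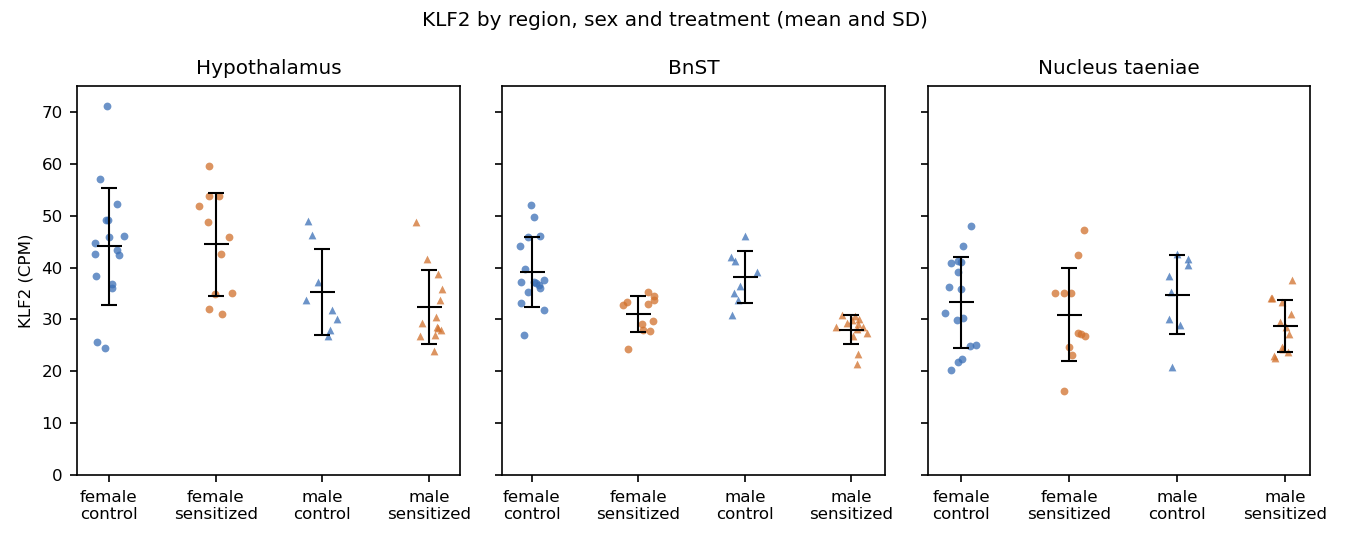
KLF2 in CPM (vertical axis) in each bird by sex and treatment, with 1 panel per region. Points are birds (circles females, triangles males, blue control, orange sensitized), and the bars are the mean and SD. In the hypothalamus the female means lie above the male means in both treatments, and in the BnST the sensitized birds lie between 21.5 and 35.3, below most controls.

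In the BnST, where the gene was chosen, control birds had a lowest value of 27.03, a median of 37.2 and a highest value of 52.1 CPM, and a mean of 38.8 ± 6.13 CPM (SD, n = 24). Sensitized birds ranged from 21.5 through a median of 29.2 to 35.3 CPM, with a mean of 29.4 ± 3.41 CPM (n = 24). The groups overlapped in part: 0 of 24 sensitized birds exceeded the median of controls and 17 of 24 control birds lay above the highest sensitized bird, but only 4 of 24 sensitized birds lay below the lowest control. The log2 fold change was −0.40 (SE 0.06), with no p given, in a contrast where 0.0556% of 14384 genes passed the threshold in either direction. Without bird 49, which had 28.2 CPM, the log2 fold change was −0.40. The spread was also narrower after sensitization, with a coefficient of variation of 11.6% against 15.8% in control. Both sexes showed the difference, with means of 39.2 ± 6.74 CPM in control females (n = 16) and 31.03 ± 3.48 CPM in sensitized females (n = 11), and of 38.1 ± 5.01 CPM in control males (n = 8) and 28.002 ± 2.77 CPM in sensitized males (n = 13). The birds were split here by number into 2 series, 1 to 20 and 21 to 50, a break that the labels neither mark nor explain. Among birds 1 to 20 KLF2 had means of 41.1 ± 6.53 CPM in control (n = 8) and 27.8 ± 2.30 CPM after sensitization (n = 11), and among birds 21 to 50 of 37.7 ± 5.79 CPM (n = 16) and 30.7 ± 3.71 CPM (n = 13).

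The regions not used for the choice of KLF2 did not show a treatment difference past the threshold. Their libraries came from the same birds as those of the BnST. As deviations from treatment means, KLF2 in the BnST correlated with KLF2 in the hypothalamus (r = 0.49) and in the Tn (r = 0.42). Tests in these regions are therefore not fully independent of the choice. In the hypothalamus control birds ranged from 24.5 through a median of 42.5 to 71.1 CPM, and sensitized birds from 23.9 through a median of 35.01 to 59.5 CPM. The groups overlapped over nearly their whole range, and 8 of 24 sensitized birds exceeded the median of controls. The log2 fold change was −0.12 (SE 0.11, edgeR's quasi-likelihood test, adjusted p = 0.9997), in a region where 0.0207% of 14491 genes passed. With sex as a covariate it was −0.05 (SE 0.10), and by sex the log2 difference was 0.03 in females (permutation test, p = 0.862) and −0.12 in males (exact permutation test, p = 0.389). In the Tn control birds ranged from 20.3 through a median of 35.5 to 47.96 CPM, and sensitized birds from 16.3 through a median of 27.97 to 47.2 CPM, with 3 of 24 sensitized birds above the median of controls. KLF2 had a log2 fold change of −0.18 (SE 0.10, p = 0.0704 and adjusted p = 0.939), and 0% of 14242 genes passed (678 had an unadjusted p under 0.05). The treatment effects in the hypothalamus and the Tn differed by 0.07 (SE 0.13, unadjusted p = 0.606), and 0% of 15131 genes passed this test (195 at an unadjusted p under 0.05). That fit took the libraries of a bird as independent. With the bird as a block the difference was 0.06 (SE 0.11, edgeR's quasi-likelihood test, unadjusted p = 0.552). The effect in the BnST was more negative than that in the hypothalamus by a log2 difference of −0.29 (SE 0.13) and than that in the Tn by −0.22 (SE 0.13), which are not tested because they hold the contrast that chose the gene.

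The Tn result differed between the number series, in a comparison added after seeing the data. It is not independent of the choice of KLF2, since the same birds gave the BnST contrast. There the log2 difference between treatments was −0.55 among birds 1 to 20 and −0.29 among birds 21 to 50, not tested. Among birds 1 to 20 the Tn of control birds had 38.3 ± 4.07 CPM (SD, n = 8) and that of sensitized birds 27.7 ± 6.59 CPM (n = 11), a log2 difference of −0.50 (two-sided exact permutation test, p = 0.00208, and 0.0208 when adjusted over 20 comparisons within subsets of birds). Among birds 21 to 50 both treatments had 31.5 CPM (SD 8.96, n = 16, in control and 7.16, n = 13, after sensitization), a log2 difference of 0.02 (permutation test, p = 0.883). The effects of the 2 series differed by −0.52 (permutation of treatment within series, p = 0.0103, adjusted p = 0.0206 over 2 regions). Sex was not in this test, and its p does not cover the choice of the break between the series. Without bird 17 the difference between series was −0.50 (adjusted p = 0.0282) and that among birds 1 to 20 was −0.48 (exact permutation test, p = 0.00331, adjusted p = 0.0331). In the hypothalamus birds 1 to 20 had a log2 difference of −0.26 (exact permutation test, p = 0.0922, adjusted p = 0.263) and birds 21 to 50 one of 0.03 (permutation test, p = 0.839), and the series did not differ past the threshold (−0.29, p = 0.164). In the Tn, birds 1 to 20 differed from birds 21 to 50 by 0.33 in control (exact permutation test, p = 0.0428, adjusted p = 0.208). After sensitization they differed by −0.19 (permutation test, p = 0.177). The series differ in sex, with 8 of 11 sensitized birds male among birds 1 to 20 and 5 of 13 among birds 21 to 50. Of the control birds 4 of 8 and 4 of 16 were male. By sex, the Tn log2 difference between treatments was −0.11 in females (permutation test, p = 0.488) and −0.26 in males (exact permutation test, p = 0.0623).

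Females expressed more KLF2 than males in the hypothalamus. The 27 females ranged from 24.5 through a median of 44.8 to 71.1 CPM, and the 21 males from 23.9 through a median of 30.6 to 49.02 CPM. Of the females, 25 lay above the male median and 9 above the highest male, and 18 of 21 males lay below the female median. The difference was seen in control birds, with 44.1 ± 11.3 CPM in females (n = 16) and 35.3 ± 8.29 CPM in males (n = 8), and in sensitized birds, with 44.5 ± 9.96 CPM (n = 11) and 32.4 ± 7.10 CPM (n = 13). With treatment in the model, the log2 difference of females from males was 0.39 (SE 0.10, edgeR's quasi-likelihood test, adjusted p = 0.00489). A sex difference was found in 5.18% of 14830 genes in this region, and 1.52% were higher in females. Without bird 17 the difference was 0.38 (adjusted p = 0.0085). Birds 1 to 20 had a difference of 0.49 (7 females and 12 males, exact permutation test, p = 0.000357, adjusted p = 0.00714) and birds 21 to 50 one of 0.23 (20 females and 9 males, exact permutation test, p = 0.144, adjusted p = 0.32), and whether the series differed was not tested. Without bird 17 the former was 0.48 (exact permutation test, adjusted p = 0.0138).

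In the other regions the sexes were closer. Females had 35.9 ± 6.89 CPM and males 31.9 ± 6.22 CPM in the BnST, a log2 difference of 0.10 with treatment in the model (SE 0.06, adjusted p = 0.684), where 3.71% of 14748 genes passed. In the Tn females had 32.3 ± 8.75 CPM and males 31.1 ± 6.66 CPM, a difference of 0.03 (SE 0.10, adjusted p = 0.981), where 4.07% of 14634 genes passed. The sex difference was larger in the hypothalamus than in the BnST by 0.29 on the log2 scale (permutation of sex within treatment over the birds' differences between regions, p = 0.0031, adjusted p = 0.0046 over 3 pairs of regions) and than in the Tn by 0.38 (p = 0.0028, adjusted p = 0.0046). The BnST and the Tn differed in this respect by 0.09 (p = 0.352). Without bird 17 the first 2 values were 0.28 and 0.38 (both adjusted p = 0.0066). The choice of KLF2 by the BnST favours a small spread there, and that spread holds any sex difference. The comparisons with the BnST are therefore not independent of the choice. Sex did not interact with treatment past the threshold: the interaction was 0.14 in the hypothalamus, 0.11 in BnST and 0.16 in Tn, each with an adjusted p of at least 0.998, and 0% of genes passed in each region (502, 605 and 456 genes at an unadjusted p under 0.05).

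Response classes within a treatment did not separate by KLF2. Among sensitized birds, R birds ranged in the hypothalamus from 23.9 through a median of 33.8 to 59.5 CPM and NR birds from 30.6 through 40.3 to 53.8 CPM. In the BnST R birds ranged from 21.5 through 28.5 to 33.8 CPM and NR birds from 23.4 through 30.3 to 35.3 CPM, and in the Tn the medians were 28.5 and 30.3 CPM. The ranges overlapped in each region. The log2 difference of R from NR birds was −0.22 in the hypothalamus (SE 0.17, edgeR's quasi-likelihood test, unadjusted p = 0.215), −0.07 in BnST (SE 0.09, p = 0.431) and −0.03 in Tn (SE 0.17, p = 0.857). The share of genes that passed was 0% in the hypothalamus (810 genes at an unadjusted p under 0.05), 0.00659% in BnST and 0% in Tn (685 genes).

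The 5 control birds labelled S had 42.7, 57.0, 27.9, 25.6 and 24.5 CPM of KLF2 in the hypothalamus (birds 1, 2, 11, 32 and 35). In the same order they had 31.8, 45.9, 35.2, 27.03 and 37.1 CPM in the BnST and 30.3, 41.0, 38.4, 21.8 and 20.3 CPM in the Tn. Bird 2 was the highest of them in all 3 regions, and bird 32 or bird 35 the lowest. NS birds ranged from 26.7 through a median of 44.8 to 71.1 CPM in the hypothalamus, from 30.9 through 37.3 to 49.8 CPM in the BnST and from 20.9 through 35.3 to 47.96 CPM in the Tn. The log2 difference of S from NS birds was −0.26 in the hypothalamus (SE 0.19, edgeR's quasi-likelihood test, unadjusted p = 0.177), −0.13 in BnST (SE 0.10, p = 0.193) and −0.18 in Tn (SE 0.18, p = 0.317). None of these passed, and 0% of genes passed in each region (2925, 319 and 505 genes at an unadjusted p under 0.05). Without bird 2 the difference in the hypothalamus was −0.51 (unadjusted p = 0.0171, adjusted p = 0.261), so this bird moved the value by more than its SE. The S birds were 4 females and 1 male, and the NS birds 10 females and 7 males. With sex as a covariate the hypothalamus difference was −0.36 (SE 0.16, edgeR's quasi-likelihood test, unadjusted p = 0.0264, adjusted p = 0.152). With number series as a covariate it was −0.14 (same test, unadjusted p = 0.491).

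**Figure D2:**
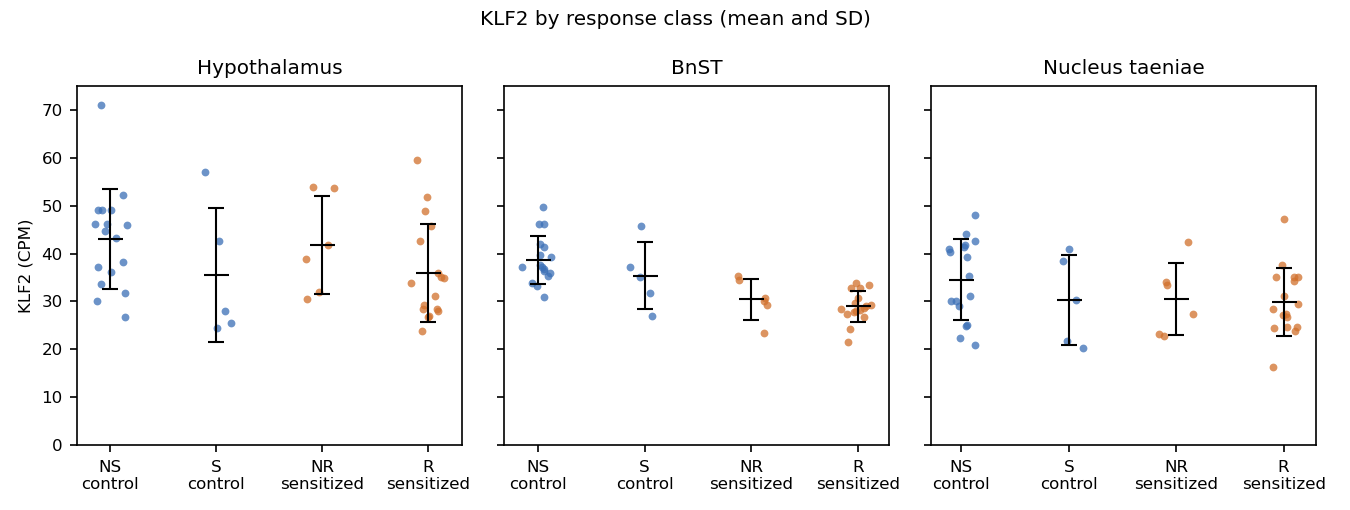
KLF2 in CPM (vertical axis) by response class, with 1 panel per region. Points are birds (blue control, orange sensitized), and the bars are the mean and SD. The classes overlap within each treatment in each region, and the 5 S birds in the hypothalamus run from 24.5 to 57.0.

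KLF2 was set beside a list of immediate early genes, of which 11 of 25 could be matched to an identifier. All the names come from genes that the study itself picked from these libraries, so the list is not independent evidence of a direction. In the BnST all 11 had a negative log2 fold change after sensitization and 6 passed the threshold downward, where 0.0487% of all genes did. The 6 were FOS, EGR4 and NPAS4, which encode transcription factors induced by neuronal activity, BTG2, an antiproliferative factor, RRAD, a small GTPase that inhibits calcium channels, and SIK1, a kinase. The median log2 fold change of all 11 was −0.56, and 6 of the 11 were more negative than KLF2 at −0.40, while the SE of KLF2 was smaller than that of 10 of the 11. Both values of KLF2 belong to the contrast that chose it, which favours a small SE, so its place is a description. FOS itself had 221 ± 66.5 CPM in control and 141 ± 35.3 CPM after sensitization (n = 24 each), a log2 fold change of −0.65 (SE 0.11).

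In the hypothalamus KLF2 lay above the whole list. This place is a description, since the study picked list genes in part by their results in the hypothalamus. All 11 genes had a negative log2 fold change there, from −0.64 to −0.13 with a median of −0.36. All 11 were more negative than KLF2 at −0.12 (SE 0.11). JUN (−0.13), TOB1 (−0.15) and SIK1 (−0.21) lay within this SE of KLF2, and the others lay farther away. Only BTG2 passed in edgeR, where 0.0069% of all genes passed downward. The study, which used likelihood ratio tests in DESeq2, reported further genes as lower in the hypothalamus after sensitization, FOS and EGR4 among them. In the BnST it also reported KLF2 and JUN as lower. It names KLF2 among the lowered genes, most of which it considers immediate early genes. FOS had 128 ± 17.9 CPM in control and 98.8 ± 23.9 CPM after sensitization, a log2 fold change of −0.38 (SE 0.08) that missed the threshold (adjusted p = 0.0773). In the Tn 10 of the 11 were negative with a median of −0.14, 0 passed (0% of all genes), and 5 were more negative than KLF2 at −0.18. The median over all genes tested was 0.00 in each region.

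**Figure D3:**
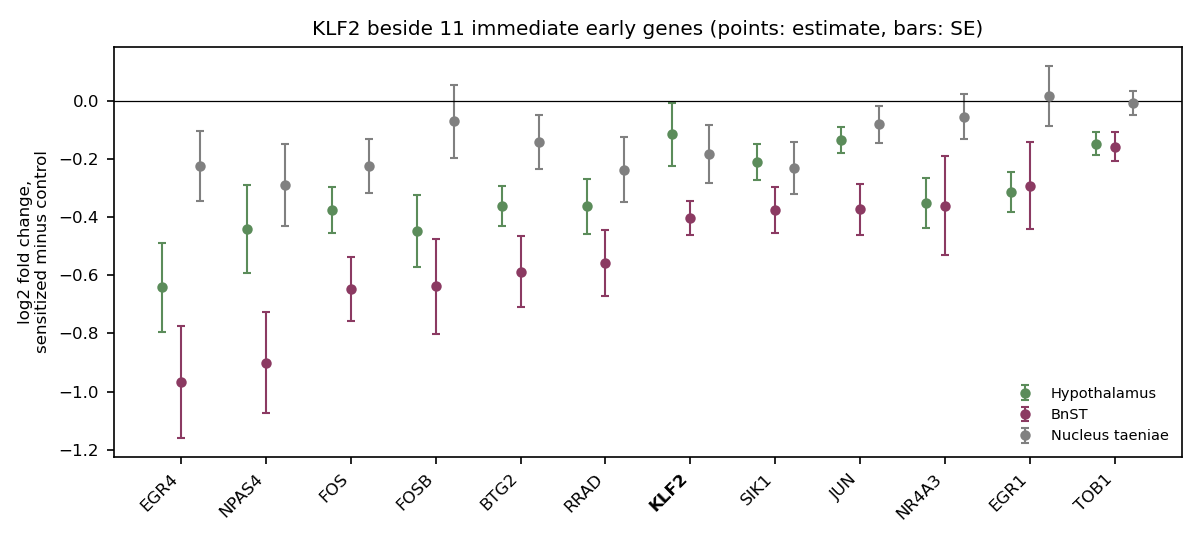
Log2 fold change of sensitized against control birds (vertical axis) for KLF2 and the 11 immediate early genes, ordered by their value in the BnST. Points are edgeR estimates and bars are SEs, in green for the hypothalamus, purple for the BnST and grey for the Tn. KLF2 lies at −0.40 in the BnST, within the range of the list. In the hypothalamus it lies at −0.12 (SE 0.11), above all 11 but within its SE of the nearest. The study picked the list genes from these libraries and KLF2 was chosen by the BnST, so these places are descriptions.

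Whether KLF2 followed FOS from bird to bird was asked within each treatment, over 24 birds and with 12 relations in the family. In the hypothalamus r was 0.31 in control birds (rho = 0.17, permutation p = 0.140) and 0.50 in sensitized birds (rho = 0.49, p = 0.0133, adjusted p = 0.0533). Without the 2 birds farthest from the median of FOS the latter fell to 0.36, and without bird 17 to 0.45 (adjusted p = 0.0969). In the BnST r was 0.41 in control birds (rho = 0.24, permutation p = 0.0493, adjusted p = 0.0985), which fell to 0.16 without the 2 farthest birds, and 0.28 in sensitized birds (rho = 0.32, p = 0.193). In the Tn r was 0.51 in control birds (rho = 0.49, permutation p = 0.00934, adjusted p = 0.0533), or 0.40 without the 2 farthest, and −0.12 in sensitized birds (rho = −0.24, p = 0.577). None of the 6 relations passed the adjustment, and the 3 highest had permutation p-values of 0.0991, 0.484 and 0.0659 without the 2 farthest birds. As deviations from an additive linear fit of sex and number series, r in control and sensitized birds was 0.29 and 0.40 in the hypothalamus. It was 0.39 and 0.43 in the BnST (the latter with permutation p = 0.035, adjusted p = 0.0903), and 0.44 and −0.04 in the Tn. None of these passed the adjustment. Within the number series r in sensitized birds of the hypothalamus was 0.34 among birds 1 to 20 (n = 11, permutation p = 0.301) and 0.28 among birds 21 to 50 (n = 13, p = 0.344). In control birds of the Tn it was 0.15 (n = 8, exact permutation p = 0.697) and 0.63 (n = 16, p = 0.00934), and in control birds of the BnST 0.32 (n = 8, exact permutation p = 0.438) and 0.42 (n = 16, p = 0.105). After linear adjustment for FOS in the same library, the difference in KLF2 between treatments in the BnST was −0.28 (SE 0.07), against −0.39 without it, given as a description.

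**Figure D4:**
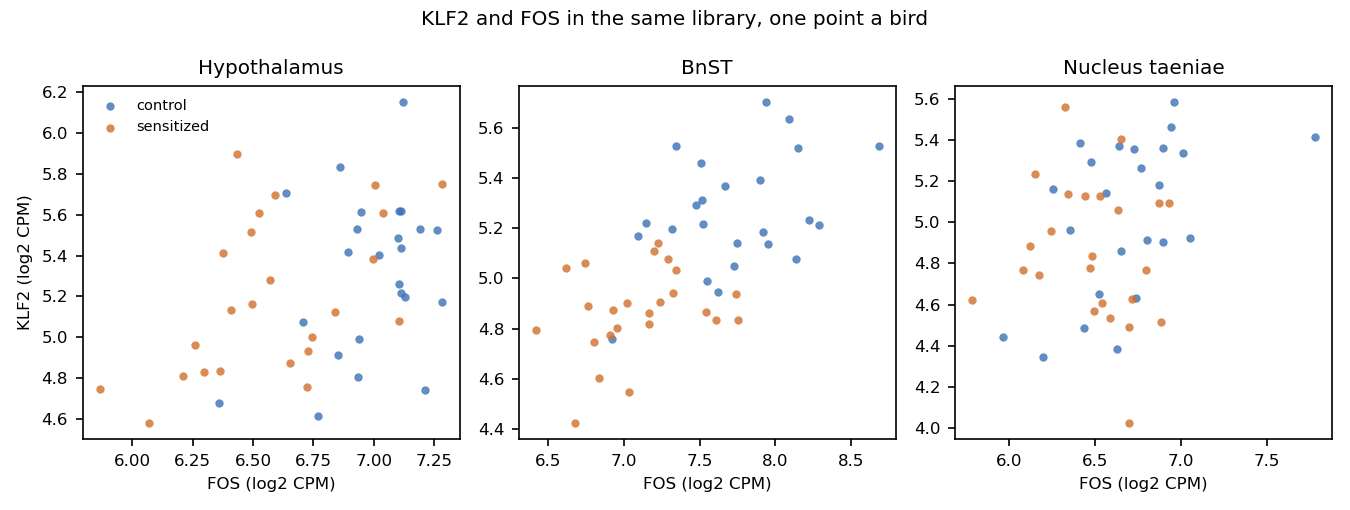
KLF2 (vertical axis, log2 CPM) against FOS (horizontal axis, log2 CPM) in the same library, with 1 panel per region. Points are birds, blue control and orange sensitized. In the BnST the sensitized birds lie lower on both axes, and within either treatment r is at most 0.41.

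In sensitized birds KLF2 in the hypothalamus and in the BnST were correlated, though not within both number series. Across the 24 sensitized birds r was 0.60 (rho = 0.66, permutation p = 0.00168, adjusted p = 0.0202), and without the 2 birds farthest from the median of the hypothalamus it was 0.50 (p = 0.0164). It was 0.59 without bird 17 (permutation p = 0.00262, adjusted p = 0.0314) and 0.60 without bird 49 (adjusted p = 0.0275). Within the number series r was −0.06 among birds 1 to 20 (n = 11, permutation p = 0.875) and 0.79 among birds 21 to 50 (n = 13, p = 0.00049), and the difference between the series was not tested. When each value was taken as a deviation from an additive linear fit of sex and number series, r was 0.40 (permutation p = 0.0514, adjusted p = 0.0903), no longer past the threshold. In control birds r between the hypothalamus and the BnST was 0.41 (rho = 0.38, permutation p = 0.0482, adjusted p = 0.0985). Between the hypothalamus and the Tn r was 0.35 in control (rho = 0.35, permutation p = 0.0953) and 0.21 in sensitized birds (rho = 0.25, p = 0.334). Between the BnST and the Tn it was 0.46 in control (rho = 0.46, permutation p = 0.0244, adjusted p = 0.0732) and 0.36 in sensitized birds (rho = 0.35, p = 0.083). Over all 48 birds, as deviations from treatment means, r for KLF2 was 0.49, 0.28 and 0.42 for these 3 pairs of regions, and the median over all genes was 0.30, 0.29 and 0.23.

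**Figure D5:**
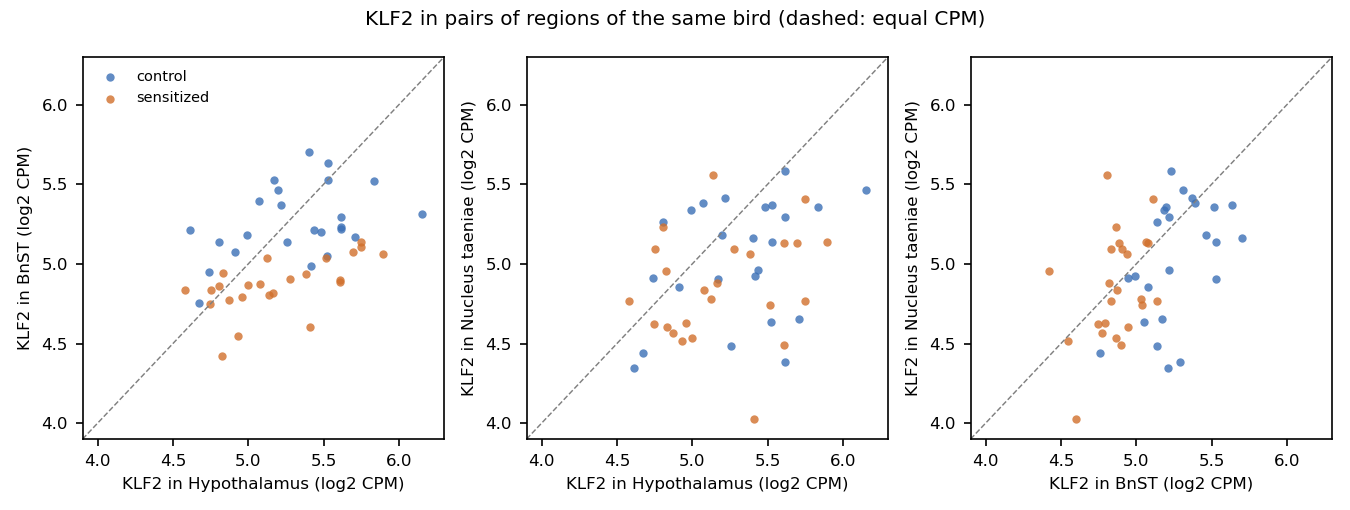
KLF2 in one region against another region of the same bird, both in log2 CPM, with 1 panel per pair of regions. Points are birds (blue control, orange sensitized) and the dashed line marks equal values. In the first panel 20 of 24 sensitized birds lie on the hypothalamus side of the line, against 12 of 24 controls.

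KLF2 varied more than most genes of similar level in 2 of the 3 regions. The SD within treatments was 0.38 on the log2 scale in the hypothalamus, 0.20 in BnST and 0.36 in Tn, at percentiles 93.8, 40.3 and 88.4 of the 1000 genes nearest in mean level. Each SD still holds any difference between the sexes, as found for KLF2 in the hypothalamus. The BnST is the region by which KLF2 was chosen, and such a choice favours a small SD there. The 5 genes whose values over birds were most like those of KLF2, by the mean over regions of r across 48 birds as deviations from treatment means, were not paired with names. They were led by ENSCJPG00005014738, with a mean r of 0.69 (0.82 in the hypothalamus, 0.47 in BnST and 0.70 in Tn), and ENSCJPG00005003647, with a mean r of 0.66. The fifth, ENSCJPG00005015623, had a mean r of 0.63. FOS had a mean r of 0.34 and stood at rank 340 of 14020 genes. These likenesses carry no p, since all genes of a library share its tissue and depth. Differences between the sexes and the number series also remain in them. In the hypothalamus females exceeded males by 0.65 on the log2 scale for ENSCJPG00005014738 (SE 0.22, edgeR's quasi-likelihood test, adjusted p = 0.0697), which missed the threshold. For KLF2 the sex difference there was 0.39 (SE 0.10). The treatment difference in the hypothalamus was positive for all 5 genes, from 0.13 to 0.42, and passed in none, where KLF2 had −0.12. In the BnST that of the 5 genes ran from −0.32 to 0.002, where KLF2 had −0.40.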

How the data were processed

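Total RNA from tissue punches of the hypothalamus, BnST and Tn was sequenced. The authors mapped the reads with HISAT2 to the quail genome, counted reads by gene with HTSeq, and deposited these raw counts, not normalized. Versions of the mapping and counting tools, and the strand setting, are not given in the sources used here, so reads of an antisense gene cannot be told apart. Gene names were paired with 21 identifiers by the study's supplementary tables. Of the lists looked for, 11 of 25 immediate early genes, 1 of 18 Krüppel-like factors (KLF2 itself), 0 KLF2 targets and 0 cell type markers were matched.

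Counts were analysed with edgeR 4.0.16 in R 4.3.3 (TMM per region, or over all libraries between regions, filterByExpr set to 10 counts and a total of 15, robust quasi-likelihood fit and F test, Benjamini-Hochberg adjustment over all genes tested, threshold 0.05). A prior count of 2 was added for log2 values of single birds. Permutation tests of single values were two-sided, exact for groups under 10 birds and otherwise with 100000 permutations. Alternatives used DESeq2 1.42.0, limma 3.58.1 and sva 3.50.0, other size factors, filters, covariates and birds. The procedure was tested on simulated data, where treatment comparisons recovered 77 to 83% of genes changed by 0.5 on the log2 scale. The comparisons of response classes recovered only 40 to 56% of such genes. Each simulation changed 200 genes. By treatment, the measured counts gave far fewer genes past the threshold: 3 (hypothalamus), 8 (BnST) and 0 (Tn). The adjustment is stricter where fewer genes change. FOS missed in the hypothalamus at an unadjusted p of 2.1e-05 (edgeR's quasi-likelihood test). The recovered shares therefore may not hold for the tests of KLF2. The 3 libraries of a number came from 1 bird: labels of sex, treatment and class were identical within all 48 numbers, and the median over genes of r between 2 regions of a bird was 0.23 to 0.30. The named genes were KLF2, FOS, the 5 genes most like KLF2, those in the study's tables and list members past a threshold. The gene, lists and tests were chosen with earlier results of these data known. The comparisons of sex between regions and of treatment between number series, and the relations and comparisons within subsets without bird 17, were added after seeing the data.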

Additional observations from a re-analysis of the deposited data

Results flagged for a closer look

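In the hypothalamus of control females labelled NS (n = 10), bird 23 had 71.1 CPM of KLF2, far above the next bird at 52.3 CPM. In the BnST of sensitized males labelled R (n = 9), bird 48 had 21.5 CPM, below the next bird at 26.8 CPM. In all, 24 groups of KLF2 values were looked at for such birds, and chance alone marks about 1 in 20.

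The sex difference of KLF2 was larger in the hypothalamus than in the BnST by 0.29 and than in the Tn by 0.38 on the log2 scale, both past the threshold by permutation of sex within treatment. The treatment effect on KLF2 in the Tn differed between birds 1 to 20 and birds 21 to 50 by −0.52 on the log2 scale. This was also past the threshold by permutation, in a test without sex that does not cover the choice of the break. These comparisons were added after seeing the data, and the one with the BnST is not independent of the choice of KLF2.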

How the results depend on the processing

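All 192 alternative values of 49 results kept their direction, and where a p was computed all but 1 kept their side of the threshold. The exception was r of KLF2 between the hypothalamus and the BnST of sensitized birds, 0.60. It was 0.40 (permutation p = 0.0514) with deviations from an additive linear fit of sex and number series. The sex difference in the hypothalamus ranged from 0.34 to 0.39 with an adjusted p of 0.00139 to 0.0261, the treatment difference in the BnST from −0.40 to −0.38, in the hypothalamus from −0.12 to −0.05 (with sex as a covariate) and in the Tn from −0.19 to −0.14. Leaving out each S bird in turn, the difference of S from NS birds ranged from −0.51 to −0.17 in the hypothalamus, −0.24 to −0.05 in the BnST and −0.32 to −0.08 in the Tn. With the bird as a replicate block, the regions differed by 0.14 (hypothalamus and BnST), 0.24 (hypothalamus and Tn, adjusted p = 3.9e-05) and 0.10 (BnST and Tn) in edgeR, and by 0.12, 0.23 and 0.11 where limma-voom took the bird as a random block. The block did not change the call between the hypothalamus and the Tn, and the pairs with the BnST are given without a test. The comparisons of response classes rest on 6 NR and 5 S birds, with standard errors of 0.09 to 0.19.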
